A study of Mus musculus with 48 samples.

Results

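Cathepsins are proteases of the lysosome and cystatins are inhibitors of the cysteine proteases among them. The values below describe 10 of the 22916 named genes on the array, taken by name: the inhibitors Cst7 (cystatin F) and Cst3 (cystatin C), the cysteine proteases Ctsb, Ctss, Ctsz, Ctsl, Ctsh and Ctsc, the aspartic protease Ctsd and the serine carboxypeptidase Ctsa. A probe was counted for a gene where the accession given for it in the scanner file maps to that gene symbol. RNA came from the cortex and the hippocampus of the same 24 male mice, 6 in each of 4 groups. APP/PS1 mice (APPswe/PS1dE9, C57Bl6/J background) were heterozygous, and WT mice were their littermates. Both genotypes received either plain drinking water (H2O) or water with MSX-3 at 0.3 g/L, the prodrug of MSX-2, a selective antagonist of the adenosine receptor A2AR. Treatment began at 3 months of age by the sample labels (4 months by the series text) and lasted until 9 to 10 months, so that all tissue was taken at that age. The mouse prion protein promoter, which drives both transgenes in this line, is active in neurons and also in other brain cells. The study asked what long A2AR blockade does in this amyloid model, and each comparison below asks how far a cathepsin or cystatin transcript differed with genotype, MSX-3 or tissue.

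Cathepsins are made as inactive precursors, sorted to the endolysosomal compartment and activated there, mostly by proteolysis. Cystatins bind cysteine cathepsins tightly and reversibly; cystatin C is a secreted protein made widely in brain, while cystatin F is made by immune cells, is carried to lysosomes and is known for blocking cathepsin C. In brain, the lysosomes of microglia are rich in cathepsins, and several of these transcripts are known for high levels in microglia around amyloid plaques.

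The bases before the transcription start are printed for Cst7, Ctss and Ctsd. The genotype difference of these genes on H2O was called as larger in cortex than in hippocampus, in a fit without mouse as a block. With mouse as a block only Ctss was called. Each line gives the 250 bases that precede the start, from RefSeq (build GRCm38.p6), at chr2:150570165-150570414 on the + strand for Cst7, chr3:95526536-95526785 on the + strand for Ctss and chr7:142387828-142388077 on the - strand for Ctsd. Capitals mark matches to 3 short motifs that were searched on both strands: the E-box CACGTG, the ETS motif AGGAAGT and the interferon response element, written here as GAAA, any 2 bases and GAAA again.
Cst7: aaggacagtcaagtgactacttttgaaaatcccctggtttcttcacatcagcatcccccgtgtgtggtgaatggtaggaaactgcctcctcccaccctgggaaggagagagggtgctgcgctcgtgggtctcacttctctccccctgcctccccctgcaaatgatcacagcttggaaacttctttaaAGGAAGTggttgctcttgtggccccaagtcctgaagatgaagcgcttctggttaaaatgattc
Ctss: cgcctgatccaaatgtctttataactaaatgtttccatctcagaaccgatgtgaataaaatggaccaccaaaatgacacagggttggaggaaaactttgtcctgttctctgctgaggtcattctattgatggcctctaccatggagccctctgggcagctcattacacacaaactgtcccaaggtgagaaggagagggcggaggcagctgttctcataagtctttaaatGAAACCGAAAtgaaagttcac
Ctsd: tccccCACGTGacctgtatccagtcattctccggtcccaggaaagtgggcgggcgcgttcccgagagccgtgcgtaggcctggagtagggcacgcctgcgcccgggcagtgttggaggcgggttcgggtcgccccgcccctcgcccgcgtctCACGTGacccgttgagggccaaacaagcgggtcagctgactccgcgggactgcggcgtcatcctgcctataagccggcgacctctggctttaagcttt

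The Ctsd stretch holds 2 E-boxes, 245 to 240 and 98 to 93 bases before the start. The Cst7 stretch holds 1 ETS match 63 to 57 bases before the start, and the Ctss stretch 1 match to the interferon response element 21 to 12 bases before it. RefSeq entries were found for 8 of the 10 genes, in 9 entries since Ctsa has 2; Ctsb and Ctsh had none. Of those 9 entries, 3 held an E-box, 2 the ETS motif and 1 the interferon response element. Over 32851 promoter stretches of the same length, the shares were 6.02%, 7.69% and 2.98%. The motifs were chosen after the sequences were seen, so the counts cannot be read as an enrichment over these shares. A match is a description of these letters only.

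Of 48 arrays, 46 were readable. The scanner software had found no spot grid on 2 cortex arrays, from a WT mouse on H2O (mouse 310) and a WT mouse on MSX-3 (mouse 298), and both were left out, so WT cortex groups hold 5 arrays and all others 6. The 75th percentile of intensity was 531 to 1070 on readable arrays, on which 55.8% to 75.5% of spots were well above background, and 2.41 to 3.03 on the excluded arrays. Prnp signal separated the genotypes as labelled: its lowest APP/PS1 level exceeded the highest WT level by 1.72 in cortex and 1.40 in hippocampus. All levels below are log2 intensity minus the 75th percentile of the same array, a scale on which levels of 1 probe can be compared between arrays, but not levels of different probes. A gene was called when limma's adjusted p-value, over all probes kept in the tissue, was under 0.05 and the fold change at least 1.5. Cst3, Cst7, Ctsa and Ctsz lie on chromosome 2, Ctsc and Ctsd on 7, Ctss on 3, Ctsh on 9, Ctsl on 13 and Ctsb on 14. All 10 genes passed the filter on dim probes in both tissues, and no spot of theirs was saturated on the 46 arrays. Ctsh had 3 probes and Cst3 had 2; the probe with the highest mean stands for the gene. The Ctsl probe is spotted 10 times on each array, and its spots differed by an SD of 0.02 to 0.09 log2 units.

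In cortex of mice on H2O, 6 of the 10 genes rose in APP/PS1 (Cst7, Ctss, Ctsd, Ctsz, Ctsh and Ctsc), and all 10 had a higher mean there than in WT. Of all 37680 probes tested, 1.34% were called higher. Cst7 rose most, 114-fold (log2 difference 6.83, or 5.06 with normexp background correction), while the called proteases rose 1.84-fold to 2.77-fold. The Cst7 level in WT cortex lay near background, where its fold is least certain. No overlap between the WT and APP/PS1 arrays, with APP/PS1 higher, was seen for 9 of the 10 genes and for 2.06% of probes. An adjusted p-value under 0.05 was reached by 9 genes, all but Ctsb, against 1.58% of probes higher. The median log2 difference was 1.02 over the 10 genes and -0.03 over all probes. Since each array measured a whole piece of tissue, more cells of a type and more RNA per cell cannot be told apart.

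Among the inhibitors, Cst7 stood at -5.41, -4.34, -4.11, -4.67 and -5.23 in the WT cortex arrays and between 1.47 and 2.37 (median 2.15) in the 6 APP/PS1 arrays. The groups lay far apart, and the WT signal was well above background on 4 of 5 arrays. The log2 difference was 6.83 ± 0.24 (SE, limma adjusted p = 6.96e-08), and 5.06 with normexp background correction, also called. Cst3, the secreted cystatin C, stood at 6.72, 6.5, 6.5, 6.56 and 6.60 in WT and between 6.87 and 7.04 (median 6.98) in APP/PS1. The arrays did not overlap, yet the difference of 0.39 ± 0.07 (adjusted p = 0.0138) was a 1.31-fold change, under the fold minimum. The other Cst3 probe gave 0.28 (adjusted p = 0.334).

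Among the cysteine proteases, Ctss, an endopeptidase known for cutting the invariant chain of MHC class II, stood at 2.96, 3.19, 3.37, 2.98 and 3.14 in WT cortex and between 4.39 and 4.83 (median 4.58) in APP/PS1. All APP/PS1 arrays lay above all WT arrays, and the log2 difference was 1.47 ± 0.10 (2.77-fold, adjusted p = 8.21e-06). Ctsz, a carboxypeptidase, stood at 1.77, 1.74, 1.51, 1.38 and 1.76 in WT and between 2.65 and 3.18 (median 2.76) in APP/PS1. Again the groups were separate, with a difference of 1.22 ± 0.12 (2.33-fold, adjusted p = 0.000114). Ctsh, an aminopeptidase, stood at 0.68, 0.81, 0.61, 0.81 and 0.93 in WT and between 1.78 and 2.11 (median 1.89) in APP/PS1. Its difference was 1.15 ± 0.09 (2.22-fold, adjusted p = 2.1e-05), and its other probes gave 0.83 and 1.03, both called.

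Ctsc, the dipeptidyl peptidase that activates granule serine proteases, was the weakest of the calls. It stood at -3.50, -3.48, -2.45, -3.47 and -3.18 in WT and between -2.64 and -2.23 (median -2.28) in APP/PS1. The groups overlapped through 1 WT array (mouse 258), which lay above the lowest APP/PS1 array. The difference was 0.88 ± 0.18 (1.84-fold, adjusted p = 0.0296). Without mouse 258 it was 1.07 (adjusted p = 0.000246), and leaving out mouse 56, 71, 81, 255, 259, 308, 318, 323 or 325 alone raised the adjusted p-value to between 0.0594 and 0.093. Differences were 0.78 (adjusted p = 0.12) with scan day as a block and 0.69 (adjusted p = 0.177) with slide as a random block. Normexp background correction gave 0.58 (limma adjusted p = 0.0099), under the minimum fold. Leaving out the filter on dim probes gave 0.88 (limma adjusted p = 0.0607). With slide as a fixed block the difference was 0.16 (adjusted p = 0.698), a value that rests on 1 slide, whose 1 WT array is that of mouse 258.

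The aspartic protease Ctsd, a main acid endopeptidase of lysosomes, stood at 4.2, 4.27, 4.08, 4.14 and 4.16 in WT cortex and between 5.27 and 5.70 (median 5.55) in APP/PS1. The groups were separate by more than their own ranges, and the difference was 1.34 ± 0.10 (2.53-fold, adjusted p = 1.44e-05).

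**Figure D1:**
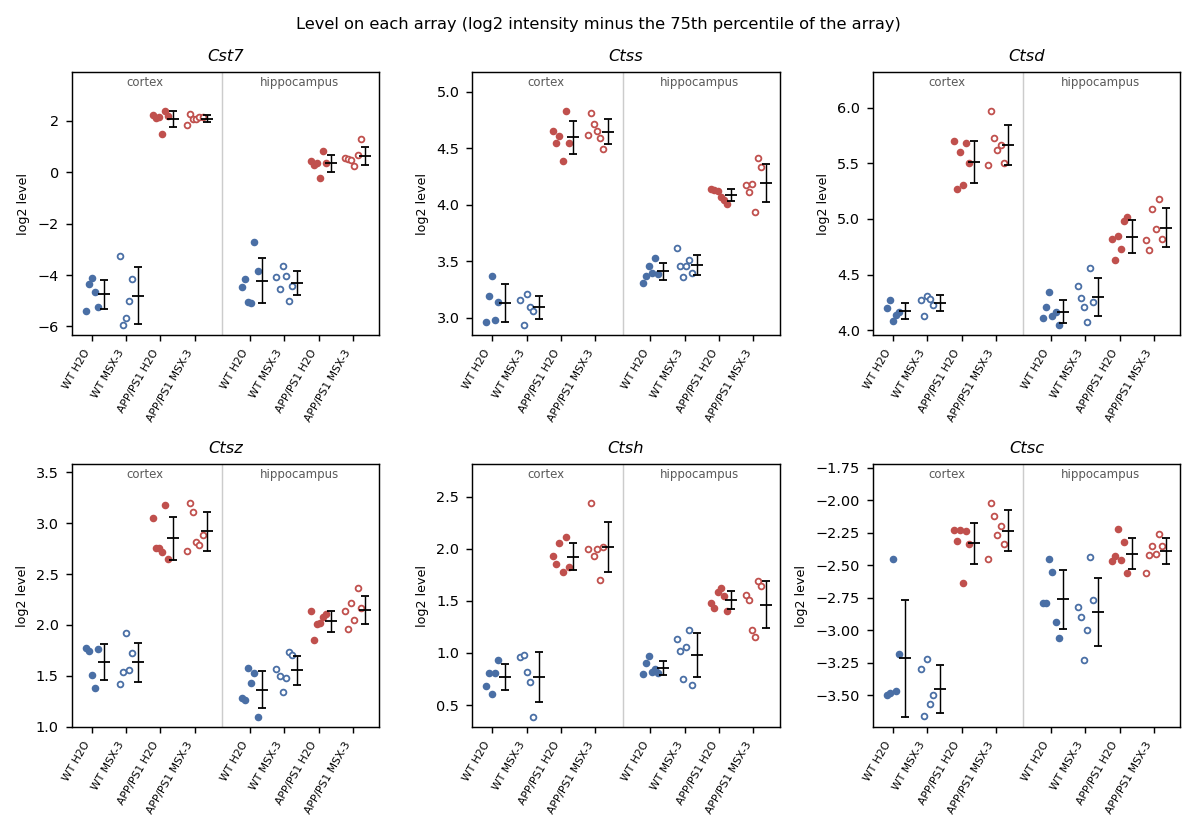
Level of Cst7, Ctss, Ctsd, Ctsz, Ctsh and Ctsc on each array (vertical axis: log2 intensity minus the 75th percentile of the array), with cortex at the left and hippocampus at the right of each panel. Blue points are WT and red points APP/PS1, filled on H2O and open on MSX-3; bars give the mean ± SD of 5 (WT cortex) or 6 arrays. For Cst7, all APP/PS1 arrays lie between -0.22 and 2.37, above all WT arrays.

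The remaining proteases differed less in cortex. The cysteine protease Ctsl stood at 2.80, 2.71, 2.99, 2.63 and 2.68 in WT and between 3.1 and 3.46 (median 3.26) in APP/PS1, a difference of 0.50 ± 0.09 (1.41-fold, adjusted p = 0.0118). The serine carboxypeptidase Ctsa, which also protects lysosomal galactosidase and neuraminidase, stood at 4.04, 3.97, 4.28, 4.18 and 4.07 in WT and between 4.54 and 4.77 (median 4.70) in APP/PS1. Neither gene overlapped between genotypes, and the Ctsa difference of 0.57 ± 0.08 (1.49-fold, adjusted p = 0.002) passed the minimum fold when mouse 258, 261 or 308 was left out (0.59 to 0.61). Ctsb, an abundant cysteine protease of brain, stood at 5.91, 5.80, 5.77, 5.80 and 5.87 in WT and between 5.95 and 6.35 (median 6.19) in APP/PS1. Its arrays were separate but close, and the difference of 0.33 ± 0.08 (1.26-fold) had an adjusted p-value of 0.0811.

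**Figure D2:**
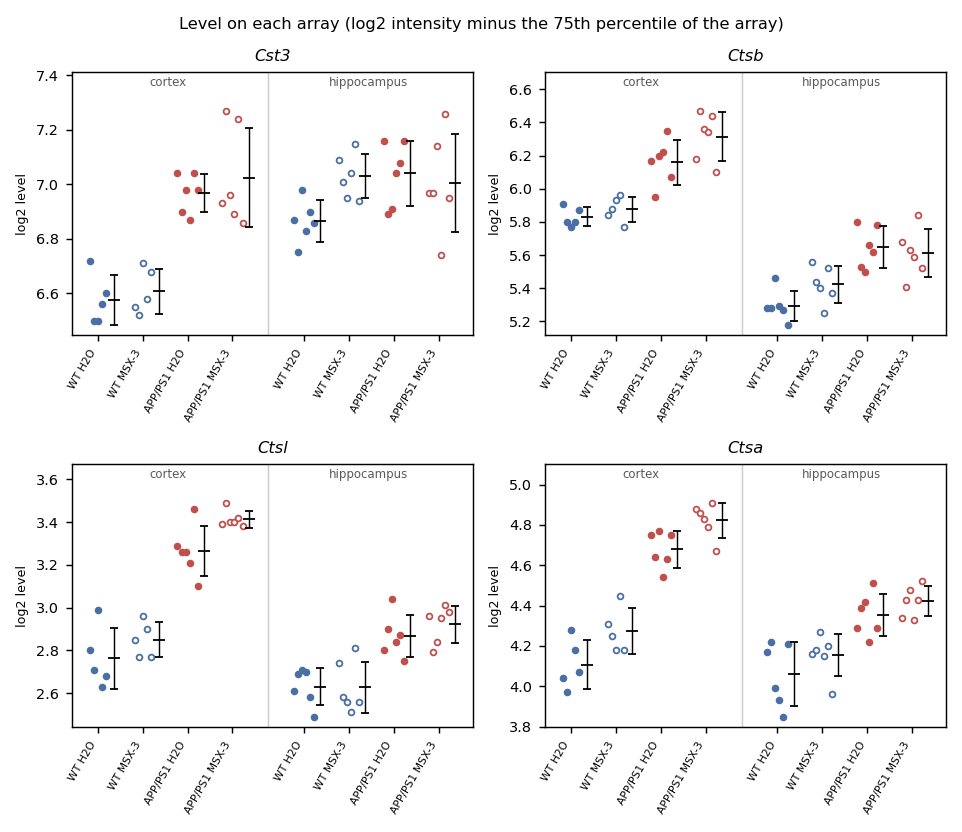
Level of Cst3, Ctsb, Ctsl and Ctsa on each array (vertical axis: log2 intensity minus the 75th percentile of the array), with cortex at the left and hippocampus at the right of each panel. Colours, fills and bars are as for the called genes (blue WT, red APP/PS1, filled H2O, open MSX-3, mean ± SD of 5 or 6 arrays); the distance between genotypes is under 1 log2 unit in every panel.

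Scan day and slide were not balanced over the groups: 5 of 6 APP/PS1 and 2 of 5 WT cortex arrays on H2O were scanned on day 1. Within each of the 2 days all 10 genes were higher in APP/PS1, with Cst7 at 6.46 and 7.10, Ctss at 1.43 and 1.45, Ctsd at 1.06 and 1.44, Ctsz at 1.01 and 1.42, and Ctsh at 1.04 and 1.23. Under a random slide block, Cst7 (6.66), Ctss (1.41), Ctsd (1.37), Ctsz (1.26) and Ctsh (1.21) were still called, at adjusted p-values of 2.83e-07 to 0.000143. A fixed slide block also kept these 5 calls (6.26 for Cst7, adjusted p-values up to 0.0298), but its values rest on the 2 APP/PS1 arrays and 1 WT array of the 1 slide that holds both genotypes.

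In hippocampus of mice on H2O, 5 of the 10 genes rose in APP/PS1 (Cst7, Ctss, Ctsd, Ctsz and Ctsh), where 0.338% of 38128 probes were called higher. Cst7 rose 23.6-fold (log2 difference 4.56, or 3.18 by normexp) and the 4 proteases 1.57-fold to 1.6-fold. Arrays of the genotypes did not overlap for 8 genes, against 0.741% of probes, the exceptions being Cst3 and Ctsc. The median difference over the 10 genes was 0.50, and -0.03 over all probes.

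Cst7 lay between -5.08 and -2.72 (median -4.29) in WT hippocampus and between -0.22 and 0.82 (median 0.37) in APP/PS1, with a difference of 4.56 ± 0.35 (adjusted p = 7.29e-05), or 3.18 by normexp, also called. Its signal was well above background on all 6 WT arrays, and no array of 1 genotype reached the other. Ctss lay between 3.31 and 3.53 (median 3.39) in WT and between 4.01 and 4.14 (median 4.09) in APP/PS1, a difference of 0.68 ± 0.06 (adjusted p = 0.000175). Ctsd lay between 4.05 and 4.34 (median 4.14) in WT and between 4.63 and 5.02 (median 4.84) in APP/PS1, a difference of 0.67 ± 0.08 (adjusted p = 0.00184). In both proteases the groups were separate. Ctsz moved from 1.10 to 1.58 (median 1.36) in WT to 1.85 to 2.14 (median 2.05) in APP/PS1, a difference of 0.67 ± 0.09 (adjusted p = 0.00406). Ctsh moved from 0.80 to 0.97 (median 0.84) to 1.40 to 1.62 (median 1.52), a difference of 0.65 ± 0.06 (adjusted p = 0.000308). The other Ctsh probes gave 0.50 and 0.58 and were not called (adjusted p = 0.303 and 0.112).

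The other 5 genes were not called in hippocampus. Ctsb gave 0.36 (adjusted p = 0.0694), Ctsc 0.35 (0.262), Ctsa 0.30 (0.24), Ctsl 0.24 (0.244) and Cst3 0.18 (0.419), all with 95% confidence intervals above 0. All 6 APP/PS1 hippocampus arrays on H2O but 2 of 6 WT arrays were scanned on day 1; within day 1 the called genes differed by 4.34 (Cst7), 0.71 (Ctss), 0.71 (Ctsd), 0.85 (Ctsz) and 0.66 (Ctsh), and with scan day as a block they were still called. With slide as a random block they were also still called (adjusted p = 0.000144 to 0.00266). With slide as a fixed block none was called (limma adjusted p = 0.251 to 0.562). The log2 differences were then 4.33, 0.75, 0.61, 0.75 and 0.65. Each of the 2 slides that hold both genotypes has only 1 APP/PS1 and 1 WT array, and all 10 genes were higher in APP/PS1 on both.

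In mice on MSX-3, the same 6 genes were called as on H2O in cortex, where 1.29% of probes were called higher, and APP/PS1 arrays lay above WT arrays for all 10 genes, against 2.36% of probes. Log2 differences were 6.89 (Cst7), 1.55 (Ctss), 1.42 (Ctsd), 1.29 (Ctsz), 1.24 (Ctsh) and 1.22 (Ctsc). No slide held both genotypes here, so a fixed slide block could not be fitted, and genotype and slide cannot be told apart. With slide as a random block all 6 genes were still called, but that fit compares the genotypes between slides only. With scan day as a block all 6 genes were also still called. All 6 APP/PS1 arrays but 3 of 5 WT arrays were scanned on day 1, so that fit compares the genotypes within day 1 only. In WT cortex on MSX-3, Cst7 stood at -3.27, -5.93, -5.66, -5.01 and -4.14 and was well above background on 2 of 5 arrays. The spread of these low values was the widest of the 8 Cst7 groups (SD 1.10), and APP/PS1 arrays lay between 1.84 and 2.27. By normexp the Cst7 difference was 5.07, also called. Ctss stood at 3.16, 2.94, 3.21, 3.1 and 3.06 in WT and between 4.49 and 4.81 (median 4.64) in APP/PS1. Ctsd stood at 4.27, 4.13, 4.31, 4.28 and 4.23 in WT and between 5.48 and 5.97 (median 5.64) in APP/PS1. Ctsc, which overlapped on H2O, stood at -3.30, -3.66, -3.22, -3.57 and -3.50 in WT and between -2.45 and -2.02 (median -2.23) in APP/PS1, with no overlap on MSX-3. Of the genes not called, Ctsl gave 0.57, Ctsa 0.55, Ctsb 0.44 and Cst3 0.42 (adjusted p = 0.00102, 0.0037, 0.0323 and 0.0734). The Ctsc difference of 1.22 ± 0.11 (adjusted p = 5.45e-05) was called on leaving out any of the 11 mice, and Ctsa passed the minimum fold without mouse 303 and Ctsl without mouse 282 (0.59 each).

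In hippocampus on MSX-3, 4 genes were called, against 0.312% of probes: Cst7 (4.92, or 3.51 by normexp), Ctss (0.72), Ctsd (0.62) and Ctsz (0.59). APP/PS1 arrays lay above WT arrays for 5 genes, the called ones and Ctsa, against 0.588% of probes. Ctss lay between 3.36 and 3.62 (median 3.46) in WT and between 3.94 and 4.41 (median 4.17) in APP/PS1, and Ctsd between 4.07 and 4.56 (median 4.27) and between 4.72 and 5.18 (median 4.87). Ctsh lay between 0.69 and 1.22 in WT and between 1.15 and 1.69 in APP/PS1, an overlap, with a difference of 0.48 (adjusted p = 0.287), while another of its probes was called (0.6, adjusted p = 0.00251). Cst3 was the only member with a mean below that of WT, at -0.03 (adjusted p = 0.981). The Ctsd and Ctsz calls depended on which mice entered: leaving out mouse 77, 281, 282, 293 or 298 took both below a threshold, and mouse 283 or 304 that of Ctsd, at log2 differences of 0.55 to 0.63. The Ctsz call was also lost by normexp (0.56, limma adjusted p = 0.0503). Without a filter on dim probes the Ctsd call was lost (0.62, limma adjusted p = 0.056). With slide as a random block the same 4 were called, and with slide as a fixed block only Cst7; Ctss then gave 0.75 (adjusted p = 0.0753), Ctsd 0.64 (0.199) and Ctsz 0.63 (0.147).

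**Figure D3:**
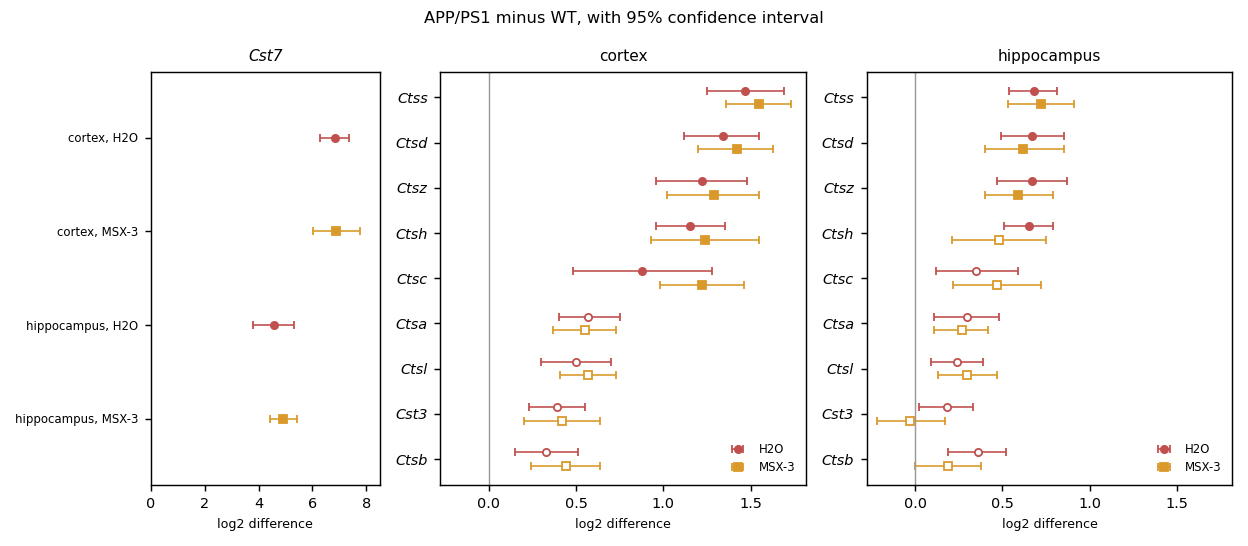
Log2 difference APP/PS1 minus WT (horizontal axis) with its 95% confidence interval from limma, on H2O (red circles) and on MSX-3 (yellow squares), for Cst7 at the left on its own scale and for the other 9 genes in cortex and hippocampus; filled symbols were called. Cst7 lies between 4.56 and 6.89, and the other called genes lie between 0.59 and 0.72 in hippocampus and between 0.88 and 1.55 in cortex.

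Averaged over H2O and MSX-3, which brings all arrays of a tissue into 1 fit, the same 6 genes were called in cortex (1.63% of probes higher), and all 10 had an adjusted p-value under 0.05 (3.39% of probes), from 0.38 for Ctsb to 6.86 for Cst7. The Ctsc call was lost there with slide as a block (0.80, adjusted p = 0.0507). In hippocampus 4 genes were called (Cst7, Ctss, Ctsd and Ctsz; 0.54% of probes) and 9 had an adjusted p-value under 0.05 (1.04% of probes). The exception was Cst3, at 0.08 ± 0.05 (adjusted p = 0.805). Ctsh, at 0.57 ± 0.07 (1.48-fold), stayed just under the minimum fold in hippocampus and passed it without mouse 281, 283 or 303 (0.59 to 0.6).

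The genotype difference was larger in cortex than in hippocampus for 3 of the 10 genes on H2O, against 0.256% of 36743 probes. For Cst7 the difference between tissues was 2.27 ± 0.45 (95% CI 1.33 to 3.2, adjusted p = 0.0289), for Ctss 0.79 ± 0.11 (0.57 to 1.02, adjusted p = 0.00074) and for Ctsd 0.66 ± 0.12 (0.41 to 0.92, adjusted p = 0.0158). These are differences of log2 differences, so a value of 0.79 means a 1.73-fold larger fold change in cortex. Ctsh, at 0.50 (adjusted p = 0.029), had a 1.42-fold gap, under the minimum. Ctsb was the gene with the smallest gap, -0.03 (95% CI -0.24 to 0.19). On MSX-3, Ctss (0.83, adjusted p = 0.000802) and Ctsd (0.79, adjusted p = 0.01) were called, against 0.185% of probes, while Cst7 gave 1.97 (adjusted p = 0.128), Ctsz 0.69 (0.051), Ctsc 0.75 (0.0515) and Ctsh 0.76 (0.175). The Cst7 result depended on the processing. By normexp its gap on MSX-3 was called (1.56, limma adjusted p = 0.00116). Its call on H2O was lost by quantile scaling (2.18) and without a filter on dim probes (2.27), at a limma adjusted p-value of 0.0574 in each.

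Both tissues came from the same mice. With mouse as a replicate block, only Ctss was called in both treatments, at 0.77 on H2O (adjusted p = 0.0241) and 0.83 on MSX-3 (adjusted p = 0.0446); Ctsd gave 0.67 (0.0551) and 0.84 (0.0526), and Cst7 1.97 (0.0713) and 1.92 (0.206). Ctss on H2O was called without any 1 of the 12 mice, while the Cst7 call was lost without mouse 56, 71, 81, 255, 259, 318, 323 or 325 (adjusted p = 0.0528 to 0.112) and the Ctsd call without mouse 81, 258, 259 or 308 (0.0504 to 0.0593). On MSX-3, Ctsd was lost without mouse 77 (0.0514), Cst7 was called without mouse 49 (2.31), Ctsc without mouse 282 (0.88) and Ctsz without mouse 282 or 293 (0.80 and 0.76). With slide as a block, Ctss and Ctsd were still called on H2O, while Cst7 was not (2.40, adjusted p = 0.144). Ctsh was called in that fit (0.6, limma adjusted p = 0.0213). On MSX-3 neither Ctss (0.75, adjusted p = 0.157) nor Ctsd (0.58, adjusted p = 0.881) was called with slide as a block.

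**Figure D4:**
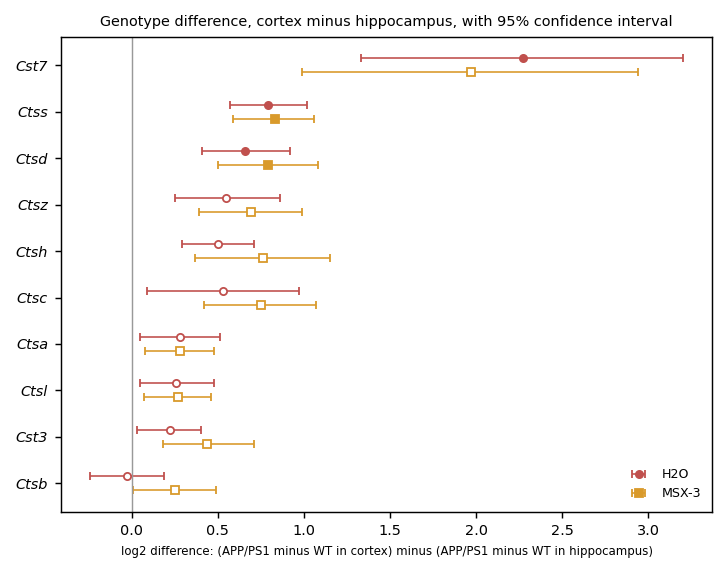
Genotype difference in cortex minus genotype difference in hippocampus (horizontal axis, log2) with its 95% confidence interval from limma, for mice on H2O (red circles) and on MSX-3 (yellow squares); filled symbols were called. Ctss and Ctsd are filled in both treatments and Cst7 on H2O, and Ctsb on H2O lies at -0.03.

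Listed by mean level over its 8 groups, Cst7 stood at -4.80 (WT, MSX-3) and -4.75 (WT, H2O) in cortex, -4.30 (WT, MSX-3) and -4.22 (WT, H2O) in hippocampus, 0.35 (APP/PS1, H2O) and 0.63 (APP/PS1, MSX-3) in hippocampus, and 2.08 (APP/PS1, H2O) and 2.09 (APP/PS1, MSX-3) in cortex. The 4 WT groups overlapped one another, as did each pair of APP/PS1 groups of 1 tissue. The highest APP/PS1 hippocampus array (1.30) lay below the lowest APP/PS1 cortex array (1.47).

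In WT mice on H2O no gene was called between cortex and hippocampus, where 7.38% of probes were called higher and 6.96% lower in cortex; by limma, 5 of the 10 had an unadjusted p-value under 0.05, against 35% of probes. With an adjusted p-value under 0.05 but a fold under 1.5, Ctsb was higher in cortex (0.54 ± 0.07, adjusted p = 0.000192; 12.5% of probes), and Cst3 (-0.29, 0.0144) and Ctss (-0.28, 0.0408) were lower (12.8% of probes). The arrays of the tissues did not overlap for Ctsb (higher, 9.25% of probes) and Cst3 (lower, 9.34%). For Ctss the order of the tissues differed by genotype: the mean was 3.13 in WT cortex and 3.41 in WT hippocampus, and 4.60 and 4.08 in APP/PS1. Cst7 gave -0.53, with a wide 95% interval of -1.42 to 0.36. Leaving out mouse 258 took Ctsb past the minimum fold (0.59), and with mouse as a block Cst3 and Ctss lost significance (adjusted p = 0.131 and 0.17).

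MSX-3 was not followed by a called difference in any of the 10 genes, in either genotype or tissue, and 0% of all probes were called in these comparisons. In WT cortex the 10 differences lay between -0.23 (Ctsc) and 0.17 (Ctsa), in WT hippocampus between -0.10 (Ctsc) and 0.19 (Ctsz), in APP/PS1 cortex between 0.01 (Cst7) and 0.15, and in APP/PS1 hippocampus between -0.05 (Ctsh) and 0.28 (Cst7). By limma, an unadjusted p-value under 0.05 was reached by 0 of the 10 genes in WT cortex (8.68% of probes), 1 in WT hippocampus (5.07%), 0 in APP/PS1 cortex (5.72%) and 0 in APP/PS1 hippocampus (3.84%). The gene was Cst3, at 0.17 (limma adjusted p = 0.964). For the proteases the 95% confidence intervals reached from -0.68 to 0.41, with Ctsc in WT cortex at the lower end. For Cst7 they were -1.11 to 1.01 in WT cortex, -0.89 to 0.73 in WT hippocampus, -0.28 to 0.31 in APP/PS1 cortex and -0.12 to 0.69 in APP/PS1 hippocampus, and changes as large as these bounds remain possible.

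Averaged over genotypes, 0 genes were called, and by limma 2 had an unadjusted p-value under 0.05 in cortex (11.8% of probes) and 1 in hippocampus (2.86%). These were Ctsa (0.15, adjusted p = 0.315) and Ctsl (0.12, adjusted p = 0.391) in cortex and Ctsz (0.15, adjusted p = 1) in hippocampus. In the interaction of genotype and MSX-3 0 genes were called (0% of probes), and 0 had an unadjusted p-value under 0.05 by limma (4.76% of probes in cortex and 4.9% in hippocampus). Beside these values, all 6 tested of 7 red blood cell markers had higher means on MSX-3 in each genotype and tissue, by medians of 1.31 in WT cortex, 0.75 in WT hippocampus, 0.79 in APP/PS1 cortex and 0.81 in APP/PS1 hippocampus, with 0 called and overlapping summed levels (3.31 to 5.75 on H2O and 4.39 to 6.74 on MSX-3 in WT cortex). Their part in the MSX-3 values was not tested. The largest interaction terms were Cst7 in hippocampus, 0.36 (95% CI -0.54 to 1.26), and Ctsc in cortex, 0.34 (-0.11 to 0.78).

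**Figure D5:**
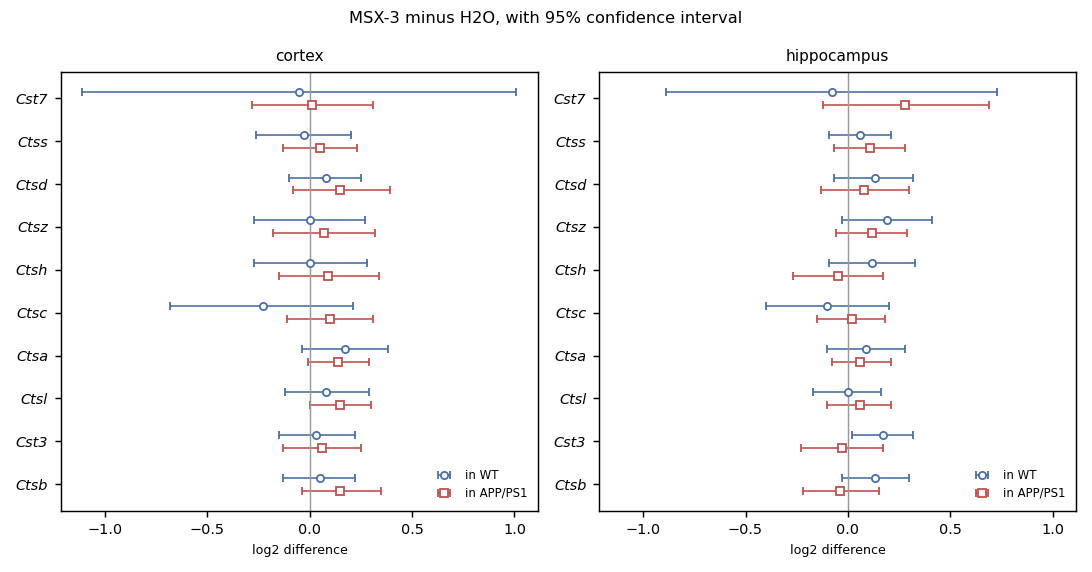
Log2 difference MSX-3 minus H2O (horizontal axis) with its 95% confidence interval from limma, in WT (blue circles) and APP/PS1 (red squares), for the 10 genes in cortex (left) and hippocampus (right). All symbols are open, as none was called; the intervals of Cst7 in WT are the widest, from -1.11 to 1.01 in cortex.

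Other genes of the cathepsin system were taken from 3 lists. In cortex on H2O, 7 of 17 other cathepsins and related genes passed the filter and 0 were called, with a median difference of 0.12; 7 of 29 other cystatins and cathepsin inhibitors passed and 0 were called, with a median of 0.21. Of 14 genes for cathepsin delivery, processing and partners, all passed, the median was 0.02, and 2 rose: Grn, whose progranulin product is cut and carried in lysosomes, by 0.85 (1.80-fold, adjusted p = 0.000656), and Cd74, the invariant chain that Ctss cuts, by 1.49 (2.80-fold, adjusted p = 0.016). Lgmn, the legumain that matures several cathepsins, gave 0.23 (adjusted p = 0.402), the cytosolic inhibitor Cstb 0.01 (0.976) and the sorting partner Psap -0.05 (0.852). In hippocampus on H2O, 6 of 17, 8 of 29 and 14 of 14 passed and 0 were called, with medians of 0.01, -0.04 and 0.06. Of these hippocampal values, Grn gave 0.32 (adjusted p = 0.188) and Cd74 0.77 (0.325). On MSX-3, Grn (0.62) and Cd74 (1.81) were again the 2 called of these lists in cortex, and 0 were called in hippocampus. Averaged over H2O and MSX-3, Cd74 rose in hippocampus by 0.91 (1.88-fold, adjusted p = 0.0171).

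Cell type markers were read beside these values. In cortex on H2O, 7 of 14 resting microglia markers were called higher in APP/PS1, and 13 of 14 had a higher mean. Their log2 differences lay between -0.53 and 1.13 (median 0.68). The called ones included Cx3cr1 (0.88) and Csf1r (0.88), while P2ry12 gave 0.45 (adjusted p = 0.0987) and Tmem119 0.42 (0.0755). In hippocampus 0 of 14 were called and 13 had a higher mean (-0.39 to 0.57, median 0.27). There Cx3cr1 (0.37, adjusted p = 0.047) and Csf1r (0.39, 0.033) were under the minimum fold. On MSX-3, 8 of 14 were called higher in cortex (-0.29 to 1.22, median 0.83) and 0 of 14 in hippocampus (-0.03 to 0.57, median 0.25). The log2 of their summed level ranged from 8.28 to 8.53 in APP/PS1 and from 7.97 to 8.54 in WT cortex, and from 8.4 to 8.59 and 8.10 to 8.58 in hippocampus; each of the 14 was well above background on at least 1 array of every group. Gfap, an astrocyte filament, gave 2.69 in cortex (adjusted p = 1.24e-06) and 0.69 in hippocampus (adjusted p = 0.0693) on H2O, and 2.80 (1.47e-06) and 0.80 (0.00149), both called, on MSX-3. On H2O, 0 of 9 astrocyte, 0 of 10 neuron, 0 of 8 oligodendrocyte and 0 of 8 endothelial markers were called in either tissue. Of markers of border macrophages 4, of neutrophils 3 and of T cells 3 passed the filter, and 0 were called. Choroid plexus markers varied widely in hippocampus, with summed levels of 0.61 to 7.71 in APP/PS1 and 0.43 to 7.72 in WT and a median difference of -0.91; with their level as a covariate the hippocampal calls on H2O and MSX-3 were the same genes. The part of the microglial and astrocyte markers in the cathepsin and cystatin differences was not tested.

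Genes with the most similar profile were found for 5 members over the 22 readable cortex and 24 hippocampus arrays, among 16264 genes, by the lower of the Pearson correlations in the tissues. For Cst7 these were Ccl3 (0.974), Prnp (0.968) and Itgax (0.963), for Ctss Trem2 (0.971), Tyrobp (0.965) and Cd68 (0.963), and for Ctsd Ctsz (0.952), Tyrobp (0.949) and C4b (0.949). Ctsb came closest to Ctsd (0.886), Cyba (0.877) and C4b (0.874). Cst3 had lower values, with Ppp1r14b (0.822), Gm11517 (0.822) and Fau (0.819). The arrays share the genotype difference, and Prnp is the gene whose signal separated the genotypes as labelled. These values are a description.

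Across the 12 APP/PS1 mice, with the mean of each treatment removed, the Cst7 level in cortex and in hippocampus correlated with r = 0.644 (permutation p = 0.0303, adjusted over the 10 genes 0.303) and rho = 0.629 (permutation p = 0.0321, adjusted 0.261). Without the 2 mice farthest from the median cortex level, r was 0.476, and with scan day means also removed it was 0.594 (permutation p = 0.0437, adjusted 0.435). No gene passed the adjustment; the next highest was Cst3, with r = 0.532 (permutation p = 0.0748, adjusted 0.374) and rho = 0.580 (permutation p = 0.0522, adjusted 0.261), with r = 0.538 without its 2 farthest mice.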

How the data were processed

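Total RNA from cortex and hippocampus of each mouse was labelled with Cy3 and hybridised to 1-colour Agilent mouse arrays. The deposited intensities are the gProcessedSignal column of Agilent Feature Extraction 10.7.3.1 (submitters' processing notes), background-corrected by that software and not yet scaled between arrays; the design build is mm9 per the file headers. No aligner applies. From these intensities, log2 values minus the 75th percentile of each array were computed. Arrays whose grid was not found (2) were left out. A probe was kept in a tissue where 4 or more arrays of a group had it well above background: 37680 in cortex, 38128 in hippocampus and 36743 in both. Groups were compared with limma 3.58.1 (R 4.3.3, data.table version 1.17.8), lmFit and eBayes, with Benjamini-Hochberg adjustment over all kept probes; the 2 groups of a comparison entered each fit, or the 4 groups of a tissue for interactions and averages. The scripts were tested on simulated data. The mice, not the arrays, are the replicates, and precision is limited by their number.

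Named are the 10 members in every comparison, the called genes of the pathway lists on H2O with Lgmn, Cd74, Cstb and Psap, 3 genes of most similar profile for 5 members, Prnp, and a few marker genes, of which 1 is not reported here. The members, gene lists and markers were chosen with earlier results of these data known, and the 3 motifs after the sequences were seen. Both tissues of a mouse carry its number in the labels, and the mouse therefore pairs them; over 35967 probes the deviations of a mouse from its group means correlated between tissues at a median r of 0.04 (22 mice, -0.52 to 0.497, above 0.1 in 10). Alternatives were all arrays kept, normexp background correction, quantile scaling, the deposited series value table, the percentile over kept probes, 2 other filters, no minimum fold, an intensity trend, array weights, slide, scan day and mouse as blocks, a fit of the 4 groups together, other probes of a gene and each mouse left out; the choroid plexus covariate and slide as a random block (duplicateCorrelation, run for the 4 genotype comparisons) were chosen after seeing the data. The deposited value table equals the scanner intensities.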

Additional observations from a re-analysis of the deposited data

Results flagged for a closer look

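Of 80 groups of 5 or 6 arrays, 5 held an array far from the others by Dixon's gap test, which about 1 in 20 groups pass by chance. In APP/PS1 cortex on H2O, the lowest Cst7 array stood at 1.47 (next 2.11) and the lowest Ctsc array at -2.64 (next -2.34); both were from mouse 261. In APP/PS1 cortex on MSX-3 the highest Ctsl array stood at 3.49 (next 3.42). In hippocampus, the lowest Ctsa array of WT on MSX-3 stood at 3.96 (next 4.15), and the highest Ctsb array of WT on H2O at 5.46 (next 5.29).

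The genotype difference differed between cortex and hippocampus, by limma's test of that difference, for Cst7 (2.27), Ctss (0.79) and Ctsd (0.66) on H2O and for Ctss (0.83) and Ctsd (0.79) on MSX-3, each larger in cortex. With mouse as a replicate block only the Ctss difference was called in each treatment.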

How the results depend on the processing

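With the 2 failed arrays kept, 1 gene was called in cortex on H2O and 1 on MSX-3 in place of 6, and 0 between tissues on either. In that setting Ctsc in cortex on H2O turned to -0.13, and in WT cortex against hippocampus Cst7 turned to 0.15, Ctsb to -0.54, Ctsz to -0.11, Ctsl to -0.36, Ctsc to 0.56, Ctsd to -0.59 and Ctsa to -0.75. Slide as a fixed block left 0 genes in hippocampus on H2O, 1 in hippocampus on MSX-3 and 0 between tissues on MSX-3; it could not be fitted in cortex on MSX-3. Mouse as a replicate block left 1 gene between tissues on H2O (from 3) and 1 on MSX-3 (from 2). Without a minimum fold, 10 genes passed in cortex and 9 in hippocampus averaged over treatments, and 3 in WT cortex against hippocampus. Array weights gave 1 gene there, and 4 between tissues on MSX-3, as did the percentile over kept probes (4) and the stricter filter (4). In WT cortex against hippocampus Ctsd, at 0.00, turned to -0.04 by quantile scaling, -0.01 by the percentile over kept probes, -0.03 with slide as a block, and -0.02, -0.02 and -0.01 without mouse 318, 56 or 71 (-0.02 to 0.06 over all mice left out); Ctsa turned to -0.01 without mouse 258 (-0.01 to 0.11) and another Ctsh probe gave 0.13. Cst3 in hippocampus on MSX-3 turned to 0.03 without mouse 283 (-0.08 to 0.03). The causes were not tested. Except without a minimum fold, the share of all probes called was not computed for these settings or with a mouse left out. These counts therefore do not tell whether a loss or gain is particular to the 10 genes.

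On leaving out each mouse, the number of genes called ranged from 5 to 7 in cortex and 5 to 5 in hippocampus on H2O, 6 to 7 and 2 to 4 on MSX-3, 6 to 6 and 4 to 5 averaged, 0 to 1 between tissues in WT, 1 to 3 for the genotype gap between tissues on H2O and 1 to 4 on MSX-3. All MSX-3 and interaction comparisons stayed at 0 under every alternative run. Over single genes in the 4 genotype comparisons and WT cortex against hippocampus, 1130 values kept direction and side of the threshold, 47 lost it, 11 gained it and 17 turned sign. The 1130 include the deposited value table, which equals the scanner intensities and could not give another result. They also include means over the probes of Cst3 and Ctsh, to which no threshold was applied. Cst7 in WT cortex lies near background, where its level and fold are least certain.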
